A study of Homo sapiens with 6 samples.

Results

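The genes described here are 31 p53 target genes and p53 inhibitors, taken by gene name from the 58825 genes measured in NCI-H460 lung cancer cells with or without PRMT5 knockdown. They comprise the p53 inhibitors MDM2, MDM4 and PPM1D and 28 genes that p53 is known to induce. All 31 had enough reads to be tested. At an adjusted p under 0.05 by edgeR's quasi-likelihood test, 0 of the 31 were higher and 0 were lower after PRMT5 knockdown, whereas PRMT5 itself fell to 32.6% of its control level. The background of calls over all 20295 tested genes was 0.0493% higher and 0.0197% lower. At an unadjusted p under 0.05, GADD45A, TNFRSF10B and PPM1D were higher and RPS27L was lower. CDKN1A and MDM2, the targets most often read as p53 activity, overlapped between the groups in CPM. CPM is a gene's count relative to the library total, scaled by edgeR's TMM method. On the deposited FPKM, CDKN1A lay wholly above the controls, as did 14.7% of all tested genes. MDM4 and ZMAT3 differed by several fold among the knockdown libraries themselves.

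p53 is a transcription factor that is held at a low level by MDM2, a ubiquitin ligase, and by MDM4, a relative of MDM2 that binds and silences its activation domain. When DNA damage or other stress releases p53, it binds paired short motifs near its target genes and induces genes of cell cycle arrest, apoptosis, DNA repair and metabolism, MDM2 among them, which closes a feedback loop. PRMT5 is the main enzyme of symmetric arginine dimethylation. Its substrates include histones, p53 and the Sm proteins of the spliceosome, and skipping of an MDM4 exon has been described in cells that lose PRMT5. NCI-H460 is known as a line with wild-type p53, so these targets can be read in it.

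The sequences below are the p53 response elements found close to the start sites of these genes, shown because they are the letters through which p53 would act on them. RefSeq promoters (GRCh38.p14, 300 bases around each annotated start) were given for 26 of the 31 genes. The p53 response element, a pair of adjacent motifs of 20 bases in all, was searched with up to 2 mismatches outside its fixed core bases. It is its own reverse complement, so a match covers both strands. Capitals mark the element, lower case the flanking bases, and every element is printed 5′ to 3′ on the plus strand, which is also the strand of its gene.
AEN: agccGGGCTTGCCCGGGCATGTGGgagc
DDB2: ctccAAGCTGGTTTGAACAAGCCCtggg
FAS: tcctGGACAAGCCCTGACAAGCCAagcc
MDM2: agctGGTCAAGTTCAGACACGTTCcgaa
The AEN element lies at chr15:88621306-88621325 and begins 34 bases before the annotated start (written -34), with 2 mismatches. The DDB2 element, at chr11:47214969-47214988, carries 1 mismatch, begins at -5 and so spans its start. The FAS element lies at chr10:88991309-88991328, at -122, with 2 mismatches. The MDM2 element lies at chr12:68808923-68808942, at -94, with 2 mismatches. In GENCODE release 29 each of the 4 lies inside its gene as annotated. The MDM2 element was intronic in 7 of 34 MDM2 transcripts and exonic in 0, and the FAS element was intronic in 11 of 20 and exonic in 2. The AEN and DDB2 elements each overlapped an exon of 1 transcript, out of 6 and 16. Such an element was present in 4 of the 26 genes (15.4%), against 98 of the 27305 genes in the table (0.359%). With at most 1 mismatch, DDB2 alone remained among the members (3.85%, against 0.0696% of all genes). None of the 4 genes with an element was among those past an unadjusted p of 0.05. GADD45A and TNFRSF10B, which were past it, had no promoter entry and could not be searched. For the other genes, these letters were not found in this window, which leaves out introns further inside and more distant elements. GADD45A, TNFRSF10B, TP53INP1, PHLDA3 and RRM2B had no entry.

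RNA-seq was available from 3 NC-shRNA libraries (control hairpin, directed against GFP according to the labels) and 3 PRMT5-shRNA libraries. The cells had been infected with lentivirus and selected with puromycin to give stable lines, and the replicates are described as biological ones. Several hairpins against PRMT5 had been designed and the labels do not name the one that was sequenced, so off-target effects of a hairpin cannot be told apart from the loss of PRMT5. Whether replicates were separate infections is not stated, and p-values measure the spread between these libraries. Libraries held between 53531257 and 70518401 counts. PRMT5 was at 143, 127 and 128 CPM in the control and at 45.8, 45.6 and 38.3 CPM in the knockdown (-1.62 ± 0.0943 on the log2 scale, SE, adjusted p = 0.0063 by edgeR). The labels call the line a lung adenocarcinoma line, whereas it is generally described as a large cell carcinoma line. Of 6 lung adenocarcinoma markers, 0 reached a mean of 100 counts and 2 were at 0 in every library, while 5 of 8 epithelial markers did reach it. The summed epithelial markers were at 1513 to 1655 CPM of the library total in the control and 1403 to 1440 in the knockdown. The 7 endothelial markers summed to 9.74 to 10.8 CPM in the control and 15.1 to 18.8 in the knockdown, with VWF and KDR at 0 in every control library. Only 1 of these 7 reached a mean of 100 counts. Of 6 fibroblast markers 5 reached it, and they summed to 117 to 136 CPM in the control and 111 to 135 in the knockdown. The part of these lists in the differences below was not tested. In bulk RNA, fewer cells of a type and less RNA per cell cannot be told apart.

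Expression of the 31 genes differed widely in the deposited FPKM, which is scaled to gene length and library size. PERP, a membrane protein of cell junctions, had the highest mean over the 6 libraries with 38.7 FPKM. TRIAP1, a small inhibitor of apoptosis, followed with 28.3 FPKM, and TNFRSF10B, CDKN1A, CCNG1, PLK2 and XPC lay between 24.3 and 13.9 FPKM. At the low end, TP53I11 (0.853 FPKM), TP53INP1 (0.760 FPKM) and SPATA18 (0.425 FPKM) were the only members under 1 FPKM. Neighbours in this order often overlapped. BTG2, RPS27L and FDXR, for example, had means of 6.26, 5.86 and 5.84 FPKM, with SDs within a group of 0.356 to 0.683 FPKM. The 31 genes together took 0.132%, 0.132% and 0.135% of the counts in the control libraries and 0.139%, 0.138% and 0.152% in the knockdown libraries. Replicate 3 of the knockdown was the highest, and it was also the library with the most MDM4.

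**Figure D1:**
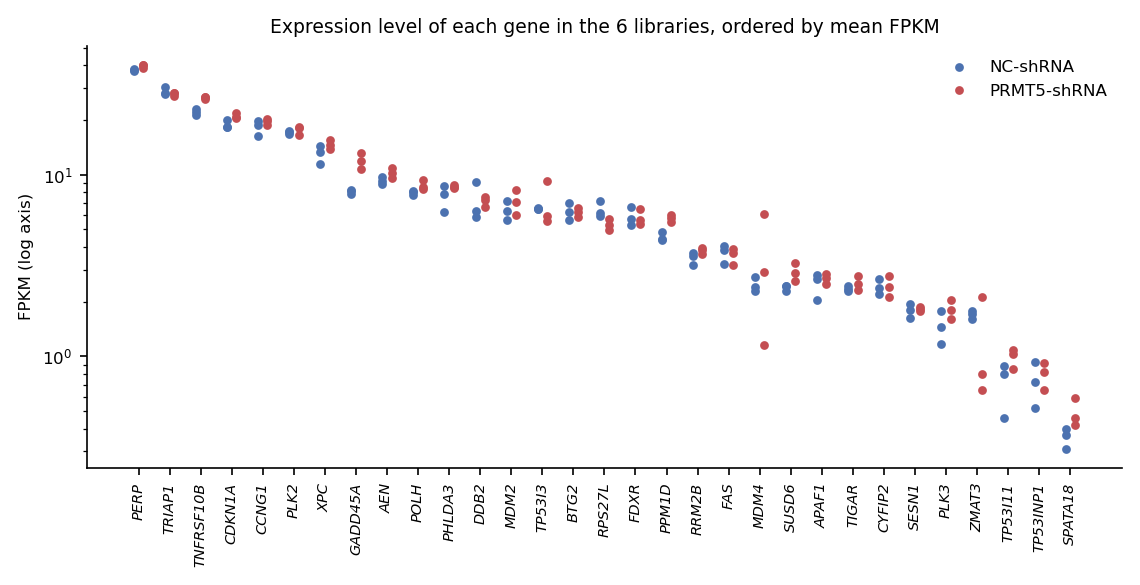
Deposited FPKM (log axis) of each of the 31 genes in the 3 NC-shRNA (blue) and 3 PRMT5-shRNA (red) libraries, ordered by mean FPKM from PERP (38.7) to SPATA18 (0.425). The red points of MDM4 and ZMAT3 are spread widely. Those of PPM1D, CDKN1A, GADD45A, TNFRSF10B, PERP, SPATA18, POLH and SUSD6 lie above all blue ones, and those of RPS27L lie below them. Of all tested genes, 14.7% lay wholly above the controls on FPKM and 6.59% wholly below.

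Across the 31 genes the fitted differences were small. The median log2 fold change was 0.07, beside 0.0075 for all tested genes, and 21 of the 31 were above 0 where 51.2% of all tested genes were. In CPM, 5 genes had every knockdown library above every control library (GADD45A, TNFRSF10B, PPM1D, SUSD6 and SPATA18), and in 1, RPS27L, every knockdown library was below. Over all tested genes these shares were 11.0% and 10.7%. On the deposited FPKM, 8 members lay wholly above the controls, with CDKN1A, PERP and POLH added, and 1 wholly below, beside 14.7% and 6.59% of all tested genes. An unadjusted p under 0.05 was reached by 3 higher members (9.68%) and 1 lower member (3.23%), beside a background of 6.54% and 6.29%. DESeq2, an alternative test on the same counts, called 1 member higher at an adjusted p under 0.05, GADD45A, and 0 lower, where it called 1.81% of 16723 genes higher and 1.36% lower. The 95% interval of the fold lay between a 1.5-fold decrease and a 1.5-fold increase for 24 of the 31 genes. It reached beyond a 2-fold change only for MDM4 and ZMAT3. When each library was left out in turn, the log2 fold changes of 4 members (PPM1D, GADD45A, TNFRSF10B and RPS27L) stayed within 1.5 times their value. Those of the other 27 moved further at least once. This measure is relative, so a member with a log2 fold change near 0 exceeds it after a small shift. PERP exceeded it while running only from -0.011 to 0.033, whereas RPS27L stayed within it from -0.40 to -0.23.

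**Figure D2:**
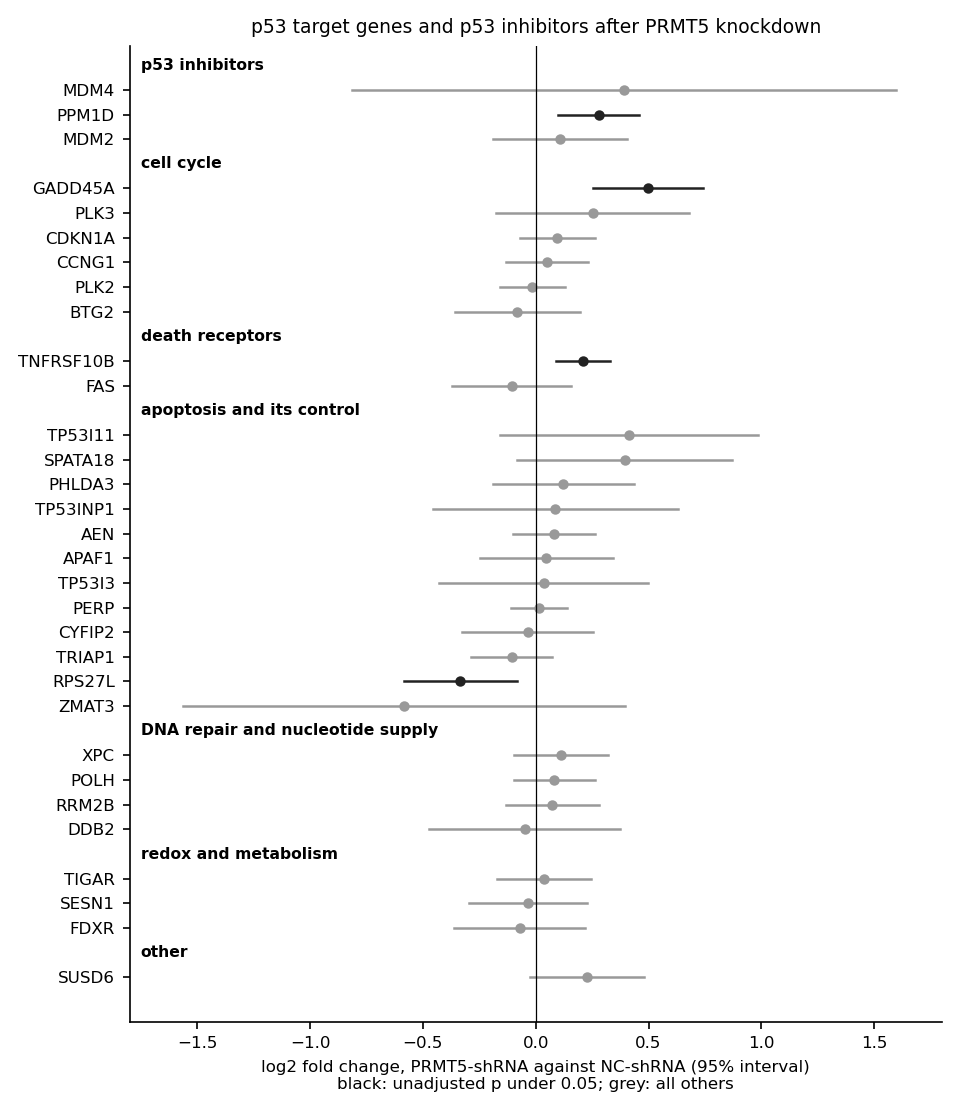
Log2 fold change of PRMT5-shRNA against NC-shRNA with its 95% interval (edgeR, 3 libraries per group) for the 31 genes, grouped by role. Black marks the 4 genes with an unadjusted p under 0.05, none of which passed the adjusted threshold, and the intervals of MDM4 and ZMAT3 are the widest.

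Among the p53 inhibitors, PPM1D showed a separated difference, MDM2 did not, and MDM4 could not be placed. PPM1D encodes WIP1, a phosphatase that removes activating phosphates from p53 and from the kinases upstream of it. It was at 27.0, 26.6 and 28.6 CPM in the control and 33.2, 32.0 and 34.5 CPM in the knockdown. Every knockdown library was above every control library (27.4 ± 1.01 against 33.2 ± 1.25 CPM, SD, n = 3). On the log2 scale the difference was 0.28 (SE 0.0753, 95% interval 0.10 to 0.46), with an unadjusted p of 0.0078 and an edgeR adjusted p of 0.248. It stayed between 0.25 and 0.33 under all 15 alternatives. With edgeR's likelihood ratio test the unadjusted p of PPM1D was 0.048.

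MDM2 was at 91.5, 99.8 and 110.5 CPM in the control and 108, 92.0 and 125 CPM in the knockdown, so the groups overlapped. Its log2 fold change was 0.11, with a 95% interval from -0.19 to 0.40 that reached a fold of 1.32 at its upper end. Without replicate 3 of the knockdown it was -0.01.

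MDM4, on chromosome 1 from 204516379 to 204558120 (GRCh38), was steady in the control with 2169, 2083 and 2176 counts. In the knockdown it had 796, 2576 and 4378 counts. In CPM these were 32.3, 30.0 and 35.0 against 14.6, 36.8 and 76.1, so that the lowest and the highest of the 6 libraries both belonged to the knockdown. The ratio of the highest to the lowest library was 1.17 in the control and 5.22 in the knockdown. The group means were 32.5 ± 2.49 and 42.5 ± 31.2 CPM (SD, n = 3). The log2 fold change of 0.39 had an SE of 0.51 and a 95% interval from -0.82 to 1.59 (edgeR adjusted p = 0.79). It was -0.34 without replicate 3 of the knockdown and 0.80 without replicate 1, so no direction can be given. PRMT5 itself differed by 1.2-fold at most among the same 3 libraries. Expressed genes within 500 kb of MDM4 did not share its spread: in the knockdown libraries 6 neighbours had ratios of 1.11 to 1.5 with a median of 1.14, against 5.21 for MDM4 on the same scale of library totals. The deposited values are per gene. The count of a gene, taken as a share of its library total, was divided by its FPKM. This ratio differed between libraries by a factor of 1.02 at the median and 1.06 at most over 12596 genes. The FPKM of a gene thus carried no isoform information beyond its count, and MDM4 isoforms could not be separated.

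In the cell cycle group, GADD45A was the member with the smallest p, and CDKN1A did not separate the groups in CPM. GADD45A, on chromosome 1 from 67685061 to 67688338, encodes a stress-induced protein that binds PCNA and p21 and slows the cycle. It was at 19.2, 19 and 17.6 CPM in the control and 23.6, 26.4 and 28.8 CPM in the knockdown, and the groups did not overlap (18.6 ± 0.84 against 26.3 ± 2.61 CPM, SD, n = 3). This was a log2 fold change of 0.50 (SE 0.103, 95% interval 0.26 to 0.74), or 1.41-fold, with an unadjusted p of 0.0019 and an edgeR adjusted p of 0.185. DESeq2 gave an adjusted p of 0.00498, the lowest over its alternatives, which ranged up to 0.426. Its log2 fold change stayed between 0.43 and 0.57.

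CDKN1A encodes p21, the inhibitor of cyclin-dependent kinases through which p53 arrests the cycle. It was at 74.3, 66.7 and 65.5 CPM in the control and 72.5, 72.5 and 75.8 CPM in the knockdown, and the first control library lay among the knockdown values. The log2 fold change was 0.10, with a 95% interval from -0.07 to 0.26, so a fold above 1.2 lay outside it. It was 0.15 without replicate 1 of the control, with an edgeR adjusted p of 0.499, and 0.06 without replicate 3 of the control. On the deposited FPKM the groups did not overlap, with 19.95, 18.35 and 18.38 FPKM in the control and 20.77, 20.59 and 21.86 FPKM in the knockdown. On log2(FPKM + 1), limma gave 0.15 with an unadjusted p of 0.035 and an adjusted p of 0.289. The edgeR, DESeq2 and limma adjusted p of CDKN1A ran from 0.289 to 0.92 over the alternatives. On FPKM, 14.7% of all tested genes lay wholly above the controls and 6.59% wholly below. The all-gene median log2 fold change was 0.039 on log2(FPKM + 1), beside 0.0075 with edgeR.

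The other 4 cell cycle members overlapped between the groups in CPM. PLK3, a stress-activated polo-like kinase, had a log2 fold change of 0.25 with an interval from -0.17 to 0.68, and it ran from 0.11 without replicate 2 of the control to 0.39 without replicate 3 of the control. CCNG1, cyclin G1, which recruits a phosphatase to MDM2, was at 0.05 (-0.13 to 0.23). PLK2, another stress-induced polo-like kinase, was at -0.01 (-0.16 to 0.13) on means of 94.6 and 93.7 CPM. BTG2, an antiproliferative adaptor of mRNA deadenylation, was at -0.08 (-0.36 to 0.19).

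Of the 2 death receptors, TNFRSF10B separated the groups and FAS did not. TNFRSF10B encodes DR5, a receptor for the death ligand TRAIL. It was at 129.6, 132 and 134 CPM in the control and 150.2, 154 and 153 CPM in the knockdown, with no overlap, and its SD of log2 CPM in the knockdown (0.018) was the smallest of the 31 genes. The means were 132 ± 2.12 and 152 ± 1.92 CPM (SD, n = 3). The log2 fold change of 0.21 (SE 0.0499, interval 0.09 to 0.33) had an unadjusted p of 0.0042 and an edgeR adjusted p of 0.213. The DESeq2 adjusted p was 0.063 within a range of 0.063 to 0.58 over the alternatives. With edgeR's likelihood ratio test the unadjusted p of TNFRSF10B was 0.051. FAS, the receptor of FAS ligand, was at 22.1, 25.7 and 26.3 CPM in the control and 23.6, 20.6 and 24.7 CPM in the knockdown. Its groups overlapped, and its log2 fold change was -0.11 (-0.37 to 0.16).

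**Figure D3:**
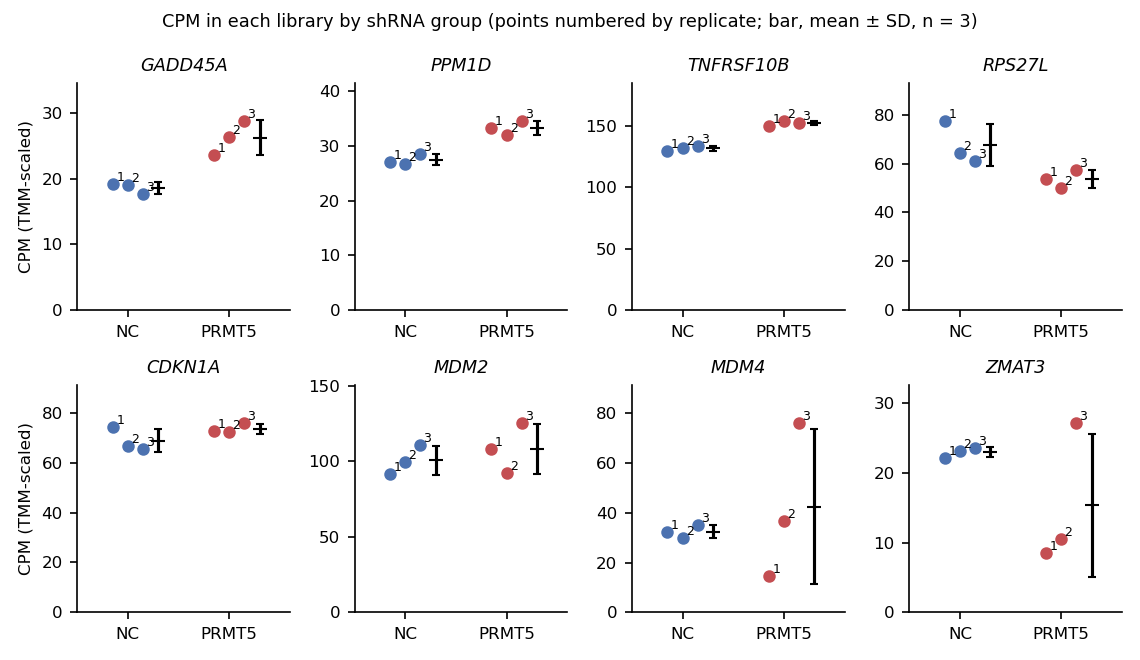
TMM-scaled CPM of 8 of the genes in each library (axes start at 0), with points numbered by replicate and bars for mean ± SD, n = 3. In GADD45A, PPM1D and TNFRSF10B the red PRMT5-shRNA points lie above all blue NC-shRNA points and in RPS27L below them, CDKN1A and MDM2 overlap, and MDM4 and ZMAT3 spread in the knockdown only.

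Of the 12 genes of apoptosis and its control, 1 had an unadjusted p under 0.05, and it was lower. RPS27L, a ribosomal protein S27 relative induced by p53, lies on chromosome 15 from 63125872 to 63158021. It was at 77.5, 64.4 and 61.1 CPM in the control and 53.5, 50.2 and 57.3 CPM in the knockdown. Every knockdown library was below every control library, although the controls differed among themselves by 1.27-fold. Its log2 fold change was -0.33 (SE 0.106, interval -0.58 to -0.08), with an unadjusted p of 0.016 and an edgeR adjusted p of 0.295, and it was -0.23 without replicate 1 of the control. RPS27L closely resembles RPS27, and how reads shared by such copies were counted is not given in the sources used here, so its value is uncertain.

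SPATA18, known as Mieap and acting in mitochondrial quality control, was at 1.89, 2.21 and 2.32 CPM in the control and 2.64, 3.40 and 2.38 CPM in the knockdown. The groups did not overlap, but the third knockdown library lay just above the third control library. Its log2 fold change was 0.39 (interval -0.08 to 0.87, unadjusted p = 0.092, edgeR adjusted p = 0.456) on only 157 counts on average, and the fold change was 0.23 without replicate 2 of the knockdown. TP53I11 had a similar log2 fold change of 0.41 (interval -0.16 to 0.98) with overlapping groups, and it was 0.19 without replicate 1 of the control, which was at 4.19 CPM where the other 5 libraries were at 7.07 to 9.25 CPM.

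ZMAT3, a zinc finger protein that binds RNA, lies on chromosome 3 from 179017223 to 179072279. It was at 22.2, 23.2 and 23.5 CPM in the control and at 8.47, 10.5 and 27.1 CPM in the knockdown. Replicates 1 and 2 of the knockdown were below all controls and replicate 3 was above all of them, as for MDM4 in that replicate 3 was the highest and replicate 1 the lowest. The log2 fold change of -0.58 had an interval from -1.56 to 0.40 (unadjusted p = 0.201, edgeR adjusted p = 0.601). Without replicate 3 of the knockdown it was -1.28, with an edgeR adjusted p of 0.088, within a range of 0.088 to 0.824 over the alternatives. Of 7 expressed genes within 500 kb, the pseudogene LRRFIP1P1 had a ratio of highest to lowest knockdown library of 3.19, close to that of ZMAT3, and the next had 1.40. The ratio does not say which library was highest, so a pattern shared with ZMAT3 is not shown by it.

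The other 8 genes of this group overlapped between the groups in CPM and had log2 fold changes between -0.11 and 0.12. PHLDA3, which competes with AKT for membrane lipids, was at 0.12 (-0.19 to 0.44) and TP53INP1, a nuclear stress protein, at 0.09 (-0.46 to 0.63). AEN, a nuclease of apoptosis, was at 0.08 (-0.10 to 0.26). APAF1, the scaffold of the apoptosome, was at 0.05 (-0.25 to 0.34), and PERP was at 0.01 (-0.11 to 0.14), the narrowest interval of the group. CYFIP2, a subunit of the WAVE complex of actin assembly, was at -0.04 (-0.33 to 0.25) and TRIAP1 at -0.11 (-0.29 to 0.07). TP53I3, a quinone oxidoreductase, was at 18.2, 18 and 17.4 CPM in the control and at 24.4, 15.8 and 14.7 CPM in the knockdown. Replicate 1 stood above all controls and the other two stood below them, and its log2 fold change of 0.04 (-0.43 to 0.50) was -0.23 without that library.

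The DNA repair genes did not separate the groups in CPM. POLH did on the deposited FPKM (8.03, 7.70 and 8.12 against 8.37, 8.59 and 9.38), where 14.7% of all tested genes lay wholly above the controls. XPC, which recognises damage for nucleotide excision repair, had a log2 fold change of 0.11 (-0.10 to 0.32). POLH, the translesion polymerase eta, was at 0.08 (-0.10 to 0.26), and RRM2B, the p53-inducible subunit of ribonucleotide reductase, at 0.07 (-0.13 to 0.28). DDB2, another damage sensor, had the closest match to the p53 element within the promoter windows that were searched. It was at 54.2, 34.1 and 36.2 CPM in the control and 37.4, 40.8 and 42.1 CPM in the knockdown. Replicate 1 of the control stood above the other 5 libraries. Its log2 fold change was -0.05 (-0.47 to 0.37) with it and 0.19 without it (edgeR adjusted p = 0.541, lowest over the alternatives, which ran up to 0.999).

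All 3 genes of redox and metabolism overlapped between the groups in CPM. FDXR, a reductase that feeds electrons to mitochondrial cytochromes, was at -0.07 (-0.36 to 0.22), TIGAR, a phosphatase that lowers glycolysis, at 0.04 (-0.17 to 0.25), and SESN1, a sestrin that restrains mTORC1, at -0.04 (-0.30 to 0.23). SUSD6, a membrane protein placed in none of these roles, was at 16.4, 16.9 and 16.6 CPM in the control and 19.3, 17.5 and 21.6 CPM in the knockdown. Its groups did not overlap, and its log2 fold change was 0.23 (-0.02 to 0.48, unadjusted p = 0.069, edgeR adjusted p = 0.423). Without replicate 3 of the knockdown it was 0.14.

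A ratio of 2 genes within a library does not depend on how libraries are scaled. 4 such ratios were formed after the values were seen. Any lack of overlap in them is therefore no independent evidence, and adjusting over the 4 does not cover this choice. With 3 against 3 libraries the exact two-sided permutation test cannot go below 0.10. GADD45A divided by CDKN1A was 0.258, 0.284 and 0.269 in the control and 0.326, 0.364 and 0.380 in the knockdown, without overlap (1.32-fold, exact permutation p = 0.10, adjusted p = 0.20 over the 4 ratios). TNFRSF10B divided by FAS was 5.86, 5.11 and 5.08 in the control and 6.35, 7.47 and 6.19 in the knockdown, again without overlap (1.25-fold, exact permutation p = 0.10, adjusted p = 0.20). PPM1D divided by MDM2 overlapped between the groups, with means of 0.274 and 0.311 (exact permutation p = 0.20, adjusted p = 0.267). MDM4 divided by MDM2 was 0.353, 0.301 and 0.317 in the control and 0.135, 0.400 and 0.608 in the knockdown (exact permutation p = 1.0), so the spread of MDM4 was not one that MDM2 shared.

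The spread of MDM4 was compared with that of other genes with many counts. Among 10594 tested genes with a mean of at least 500 counts, which include 27 of the 31 members, the median SD of log2 CPM was 0.113 in the control and 0.101 in the knockdown. MDM4 had an SD of 0.11 in the control and 1.19 in the knockdown, and 89 of the 10594 genes (0.840%), itself included, were as spread in the knockdown. ZMAT3 had 0.045 and 0.892, with 177 genes (1.67%) as spread. TP53I3 had 0.032 and 0.395, with 763 genes (7.20%) as spread. In the control DDB2 was the most spread of the 27 with an SD of 0.364, and 873 genes (8.24%) were as spread. A larger SD in the knockdown than in the control was found in 12 of the 31 members.

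**Figure D4:**
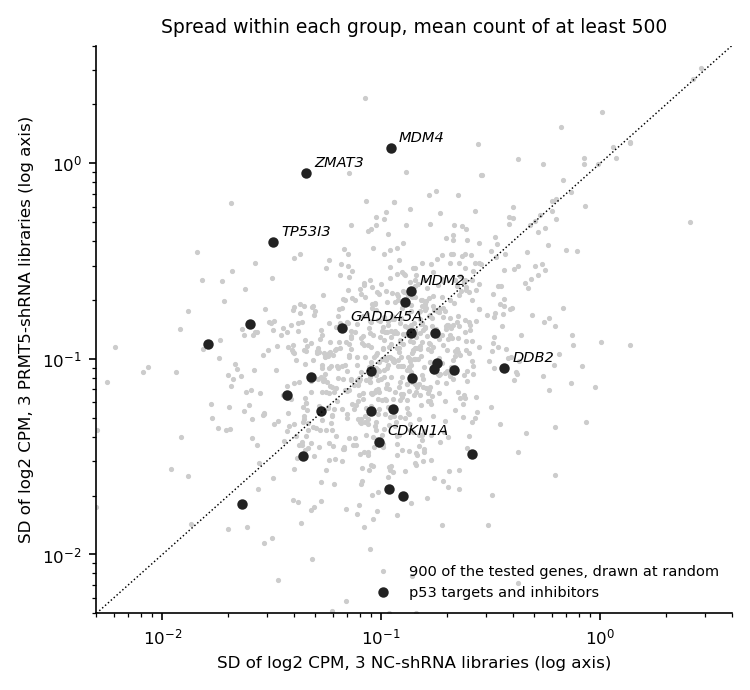
SD of log2 CPM over the 3 PRMT5-shRNA libraries against that over the 3 NC-shRNA libraries (both axes logarithmic) for the 27 members with a mean of at least 500 counts (black) and 900 of the tested genes drawn at random (grey). The dotted line marks equal spread, MDM4 (0.11 and 1.19) and ZMAT3 (0.045 and 0.892) lie far above it, and DDB2 (0.364 and 0.090) lies below.

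Some p53 targets are also induced without p53, by the integrated stress response, a programme driven by the factors ATF4 and CHOP. A list of 8 such shared targets, written with the stress genes of this comparison already known and so no independent evidence, held GADD45A and TNFRSF10B of the members and 6 further targets. At an unadjusted p under 0.05, 6 of the 8 were higher and 0 lower, 7 of the 8 did not overlap between the groups, and their median log2 fold change was 0.45. Over all tested genes, 6.54% were higher at that p and 11.0% were higher without overlap. SESN2, a sestrin, was at 35.9, 41.0 and 40.3 CPM in the control and 57.0, 55.5 and 53.6 CPM in the knockdown, 0.50 higher on the log2 scale (edgeR adjusted p = 0.113). GDF15, a secreted stress cytokine, was at 0.66 (edgeR adjusted p = 0.179), ATF3, a stress transcription factor, at 0.48 (edgeR adjusted p = 0.305) and PMAIP1, the BH3-only protein NOXA, at 0.41 (edgeR adjusted p = 0.248). DDIT4, an inhibitor of mTORC1, was at 0.10 with an interval from -0.01 to 0.20, and BBC3, the BH3-only protein PUMA, at -0.07 (-0.64 to 0.51). Of the 29 members that are not on this list, 1 was higher (PPM1D) and 1 lower (RPS27L) at an unadjusted p under 0.05, with a median log2 fold change of 0.05. No test was made of the difference between the shared and the other targets.

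A further list of 72 p53 targets outside the 31 held differences in both directions. Of the 71 tested, 7 were higher and 5 lower at an unadjusted p under 0.05 (6.54% and 6.29% of all tested genes), 0 passed the adjusted threshold, and the median log2 fold change was 0.01. SESN2, GDF15 and SFN were among the 4 with the smallest p. SFN, the 14-3-3 sigma protein that holds the cycle in G2, differed in the opposite direction from SESN2 and GDF15, at -0.42 (interval -0.67 to -0.17, edgeR adjusted p = 0.223), with 129.6, 115 and 97.5 CPM in the control and 84.5, 88.0 and 83.3 CPM in the knockdown. Members and other targets together gave 10 higher and 6 lower of 102 tested, with a median of 0.04. Without the 8 shared ones, there were 4 higher and 6 lower of 94 tested, with a median of 0.04. The 8 were listed with these data known and 6 of them were higher, so the removal itself lowered the count of higher genes.

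p53 also represses genes indirectly, through p21 and the DREAM complex, which silences cell cycle genes. Of 30 such genes, 6 were lower at an unadjusted p under 0.05 and 0 were higher, 8 had every knockdown library below every control library, and the median log2 fold change was -0.09. Over all tested genes, 6.29% were lower at that p and 10.7% were lower without overlap. With the likelihood ratio test 1 of the 30 was lower at that p, and with limma on FPKM 3 were. The list was chosen with earlier results of these data known, and the cause of these differences was not tested. BIRC5, survivin, was at -0.43 (interval -0.69 to -0.17, edgeR adjusted p = 0.233) and CCNB2, a mitotic cyclin, at -0.22 (interval -0.35 to -0.09, edgeR adjusted p = 0.234). CCNA2, cyclin A2, was at -0.19 (-0.32 to -0.05) and BUB1B, a spindle checkpoint kinase, at -0.23 (-0.43 to -0.03). Among 12 regulators of p53, 1 was higher at an unadjusted p under 0.05 (background 6.54%), the kinase HIPK2 (0.25, edgeR adjusted p = 0.263), and 2 were lower, RPL11, a ribosomal protein that binds MDM2 (-0.26, edgeR adjusted p = 0.313), and STRAP (-0.31, edgeR adjusted p = 0.319).

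**Figure D5:**
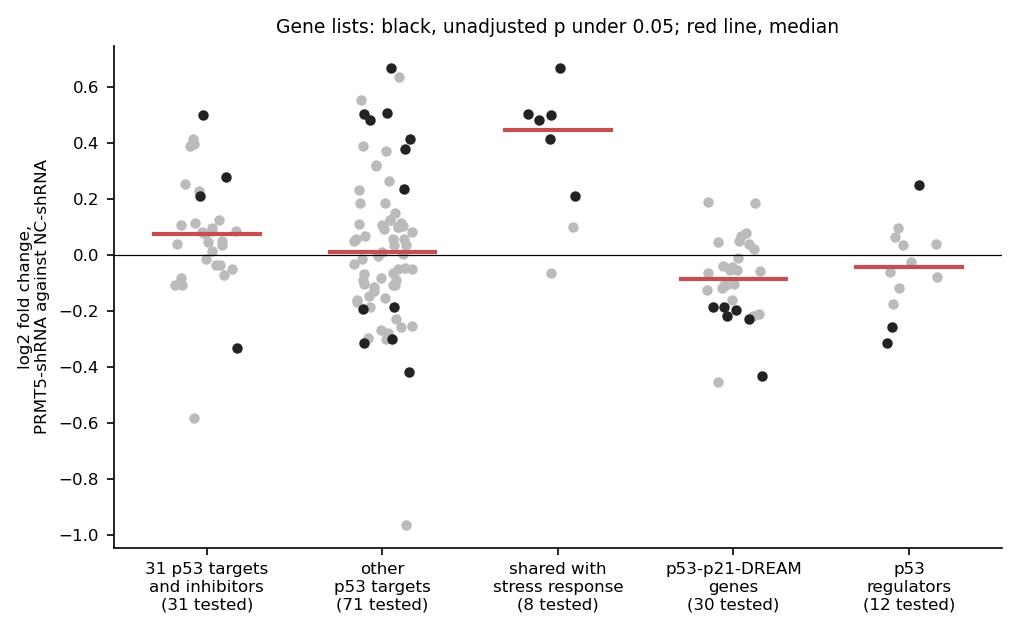
Log2 fold change of PRMT5-shRNA against NC-shRNA for each tested gene of the 31 p53 targets and inhibitors, the 71 other p53 targets, the 8 targets shared with the stress response (also shown in the first or second column), the 30 DREAM genes and the 12 p53 regulators. Black points have an unadjusted p under 0.05, red lines are medians, and these lie at 0.07, 0.01, 0.45, -0.09 and -0.04. The 8 shared targets were listed with the stress genes of this comparison already known.

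Annotated exons of 7 members overlapped those of an expressed gene on the other strand (MDM2 with CPM, FAS with ACTA2, TNFRSF10B with RHOBTB2, TP53I11 with TSPAN18, CYFIP2 with ADAM19, XPC with LSM3 and POLH with GTPBP2), and 0 overlapped one on the same strand. The libraries were made with a kit that keeps the strand, but the strand setting of the counting is not given in the sources used here, so reads of these 7 pairs may not be fully separated.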

How the data were processed

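Stable NCI-H460 lines with control or PRMT5 shRNA were sequenced as stranded mRNA libraries of 50 bp reads, 3 per group. According to the submitters' processing notes, cutadapt 1.9, HISAT2 2.0.4, StringTie 1.3.4d and GRCh38 were used. The printed methods name GRCm38, a mouse build, although all identifiers here are human. Estimated counts of each gene in each library, whole numbers that were not normalized, and FPKM values scaled to gene length and library size were deposited by the authors. The counts were tested as they stand. Groups were taken from the labels.

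Genes were filtered with filterByExpr (20295 of 58825 kept), scaled by TMM and tested with edgeR's quasi-likelihood test (edgeR 4.0.16, R 4.3.3), with Benjamini-Hochberg adjustment over all tested genes. SEs and 95% intervals follow from the same fit. Alternatives were RLE size factors, no filter, DESeq2 1.42.0, the likelihood ratio test, a length offset, a replicate block, limma 3.58.1 on log2(FPKM + 1) or log2(FPKM + 0.1) with a minimum mean FPKM of 0.5 or none, and each library left out. All 31 members are named, with the 4 smallest p of the other targets and of the DREAM genes, all shared stress targets, and regulators with an unadjusted p under 0.05. Of the other targets, 1 of these 4 is not reported here. Members and lists were chosen with earlier results of these data known. Positions are from GENCODE release 29. The test was tried on simulated data: of genes changed 2-fold and 4-fold in a simulated PRMT5-shRNA against NC-shRNA comparison of 19614 genes, it recovered 62% and 99%, with 11 false calls among 172. No change smaller than 2-fold was simulated. The members' fitted log2 fold changes ran from -0.58 to 0.50, so these rates do not cover changes of their size.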

Additional observations from a re-analysis of the deposited data

How the results depend on the processing

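The least counted member, SPATA18, averaged 157 counts, and with 3 libraries per group the intervals of the members were set by the spread between libraries. Of the 31 members, 16 kept their sign under every alternative that gave a value (15 alternatives, and 13 for SPATA18, which the FPKM minimum removed from 2), 15 changed it at least once, and 1 member, GADD45A, passed an adjusted threshold (DESeq2, log2 fold change 0.49, adjusted p = 0.00498). The TMM factors were 0.965, 0.984 and 1.001 in the control libraries and 1.020, 1.013 and 1.019 in the knockdown libraries. The edgeR values carry these factors, whereas the deposited FPKM are scaled to gene length and library size. The cause of the changes below was not tested.

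Over all genes, the count at an adjusted p under 0.05 was 14 with edgeR, 530 with DESeq2, 184 with the likelihood ratio test, 22 with a length offset, 5 with limma on log2(FPKM + 1) without a filter, 0 with the replicate block and 8 to 25 with 1 library left out. With the replicate block PRMT5 had a log2 fold change of -1.62 and an adjusted p of 0.144. The replicate numbers share only a number (correlation of deviations of same-numbered libraries 0.0012, -0.039 and 0.064 over 10487 genes). The block removed all 14 calls, and 0 members were called with or without it.

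Members higher at an adjusted p under 0.05 numbered 1 with DESeq2. Those higher at an unadjusted p under 0.05 numbered 5 in each of the 3 limma fits, the added genes being CDKN1A and SUSD6. They numbered 2 with the likelihood ratio test, in which TNFRSF10B had an unadjusted p of 0.051, and 3 to 4 with 1 library left out. Those lower numbered 0 to 2 with 1 library left out. Members without overlap numbered 2 lower with RLE size factors and 8 higher on FPKM. With 1 library left out, when non-overlap is easier to reach, they numbered 5 to 9 higher and 1 to 3 lower. The members' median log2 fold change was 0.12 on log2(FPKM + 0.1) and 0.026 to 0.093 with 1 library left out. Over all genes, the median was 0.0075 with edgeR, 0.039 on log2(FPKM + 1) and 0.050 on log2(FPKM + 0.1). On log2(FPKM + 1) without the filter it was 0.013. The share of all genes higher at an unadjusted p under 0.05 was not counted in the limma fits, so their larger counts stand without a background.

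For the other p53 targets, counts higher were 12 in each limma fit, again without a background share over all genes. Counts lower for these targets were 2 with the likelihood ratio test, 3 with limma on log2(FPKM + 1) or log2(FPKM + 0.1), and 2 to 7 with 1 library left out. Their median was 0.0060 with RLE size factors, 0.0059 with DESeq2, 0.016 with the length offset, 0.035, 0.046 and 0.023 with limma (pseudocounts of 1 and 0.1, and 1 without a filter), -0.013 with the replicate block and -0.022 to 0.029 with 1 library left out. For the DREAM genes, counts lower were 1 with the likelihood ratio test, 3 in each limma fit and 3 to 7 with 1 library left out, counts higher were 0 to 1 with 1 library left out, and the median was -0.02 in each limma fit (-0.024, -0.025 and -0.024).

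Signs changed as follows. On log2(FPKM + 1), PLK2 was at 0.042, CYFIP2 at 0.013, DDB2 at 0.032 and SESN1 at 0.017, with the same 4 values without the filter. On log2(FPKM + 0.1) they were at 0.044, 0.017, 0.039 and 0.026. TP53I3 was at -0.0021 with the replicate block and TIGAR at -0.015 with the length offset. With 1 library left out, the log2 fold change ran from -0.155 to 0.020 for BTG2, -0.039 to 0.021 for PLK2, -0.011 to 0.093 for CCNG1, -0.065 to 0.13 for APAF1, -0.088 to 0.28 for TP53INP1, -0.17 to 0.19 for DDB2, -0.138 to 0.056 for CYFIP2, -0.0028 to 0.25 for PHLDA3, -0.158 to 0.020 for FDXR, -0.011 to 0.033 for PERP, -0.104 to 0.012 for SESN1, -0.23 to 0.17 for TP53I3, -0.011 to 0.21 for MDM2, -0.34 to 0.80 for MDM4 and -0.030 to 0.090 for TIGAR. With at most 1 mismatch, 1 member had a p53 element in place of 4, a setting chosen after seeing the data.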
